A study of Mus musculus with 12 samples.

Results

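The data are the 52 genes that flank Maf on mouse chromosome 8, from Glg1 on the centromere side to Foxf1 on the telomere side, read in dorsal root ganglia with and without Maf. The members were taken from a fixed list of these genes, with Maf and the nearby Kcng4 left out, and every array probe annotated to one of them was used. Of the 52, 48 were among the 16593 genes with a named probe, through 74 of the 25697 probes on the array. Testing required detection, meaning a detection p under 0.05, on 6 or more of the 12 arrays, and 53 of the 74 probes, from 38 genes, passed. For Tmem231, Cmip, Atp2c2 and Gins2 no named probe was analysed here.

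Single-colour Illumina BeadChips measured total RNA from pooled dorsal root ganglia of lumbar levels 3 to 6 at 15 days of age. The 6 control pools are labelled wildtype. The 6 mutant pools came from Isl1-Cre//c-Maf conditional mutants, where Cre recombinase follows Isl1, a gene of sensory neurons, and ganglion cells without Isl1 are not targeted. All mice were of a mixed C57/BL6;129Ola strain background. The labels do not give the number of mice in a pool and do not say whether control mice carried the targeted allele or Cre. Pools are the units compared, so p-values measure the spread between pools and not between mice. Each of 2 chips held 3 control and 3 mutant pools. Between 12822 and 13491 probes were detected per array, and precision is limited by having 6 arrays per group. Mutant replicate 3 lay farthest from the other pools, with a median distance of tested probes from their group mean of 0.17 on the log2 scale, against 0.10 to 0.13 in the other 11 pools. Of 11 sensory neuron markers 8 were tested, from Tubb3 near background at 5.17 in controls to Nefm at 13.37. Probes of Nefl and Snap25 were too dim, and Scn9a had no named probe here. Of 5 spinal cord markers Aqp4 was tested, at 7.76 in controls and 7.68 in mutants, and Olig1, Olig2, Mog and Gfap were too dim.

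A gene close to a targeted locus is inherited with the targeted allele more often than a distant one. When the allele was made in one mouse strain and is kept on another or a mixed background, mutants and controls can therefore carry different strain versions of the neighbouring genes. Removing part of a gene can also act on its neighbours through shared regulatory DNA. The comparison asks whether the neighbours of Maf differed between genotypes. The strain origin of the DNA around the targeted allele is not given in the labels, so its part in any value below was not tested.

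The targeted gene itself separated the groups. Its single probe was above background on all 6 control arrays and on 0 of the mutant arrays, a level at least 4.48-fold lower in mutants.

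None of the 38 flanking genes with a tested probe passed the test. Of the 53 probes, 0 reached a Benjamini-Hochberg adjusted p under 0.05 in limma, where 0.235% of all 13177 tested probes did, 31 in number. The smallest adjusted p among the members was 0.28. Differences, given as mutant minus control on the log2 scale, ran from -0.43 to 0.24. Their median was 0.01, beside 0.00 over all tested probes, with 26 probes below 0 and 27 above. Taken without sign, the median difference was 0.098, beside 0.077 over all tested probes and 0.069 over other chromosome 8 probes. For tested probes of genes in the same stretch that are not on the list it was 0.063. The 95% confidence interval of the difference lay within 1.5-fold in either direction for 51 of the 53 probes. The interval that reached farthest from 0 extended to 0.70, for Crispld2. Changes larger than these bounds are thus outside the 95% intervals of the detected neighbours. Smaller ones did not pass the adjusted p with 6 pools against 6. The intervals are not adjusted for the number of probes, and those of probes with an unadjusted p under 0.05 exclude 0.

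At an unadjusted p under 0.05 there were 8 member probes, each from a different gene. These are 15.1% of the 53, beside 6.34% of all tested probes. Of the 8, 6 were lower in mutants, beside 3.77% of all tested probes in that direction, and 2 were higher, beside 2.57%. On the centromere side 3 of 28 probes were among them, and on the telomere side 5 of 25. Counted by the brightest probe of each gene, 7 of 38 genes (18.4%) were among them, beside 6.69% of all genes in a fit with 1 probe per gene. Probes of other chromosome 8 genes stood at 5.14% (31 of 603). The stretch from Glg1 to Foxf1 holds, besides Maf and Kcng4, 18 further protein-coding RefSeq genes that are not on the list, and of their 14 tested probes 0 had an unadjusted p under 0.05. With single pools left out the count of 8 ran from 5 to 10 of 53. It was 5 without control replicate 3, beside 5.78% of all probes, and 10 without mutant replicate 2, beside 6.33%. Because the list was set with earlier results known, these shares are a description and carry no test.

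**Figure D1:**
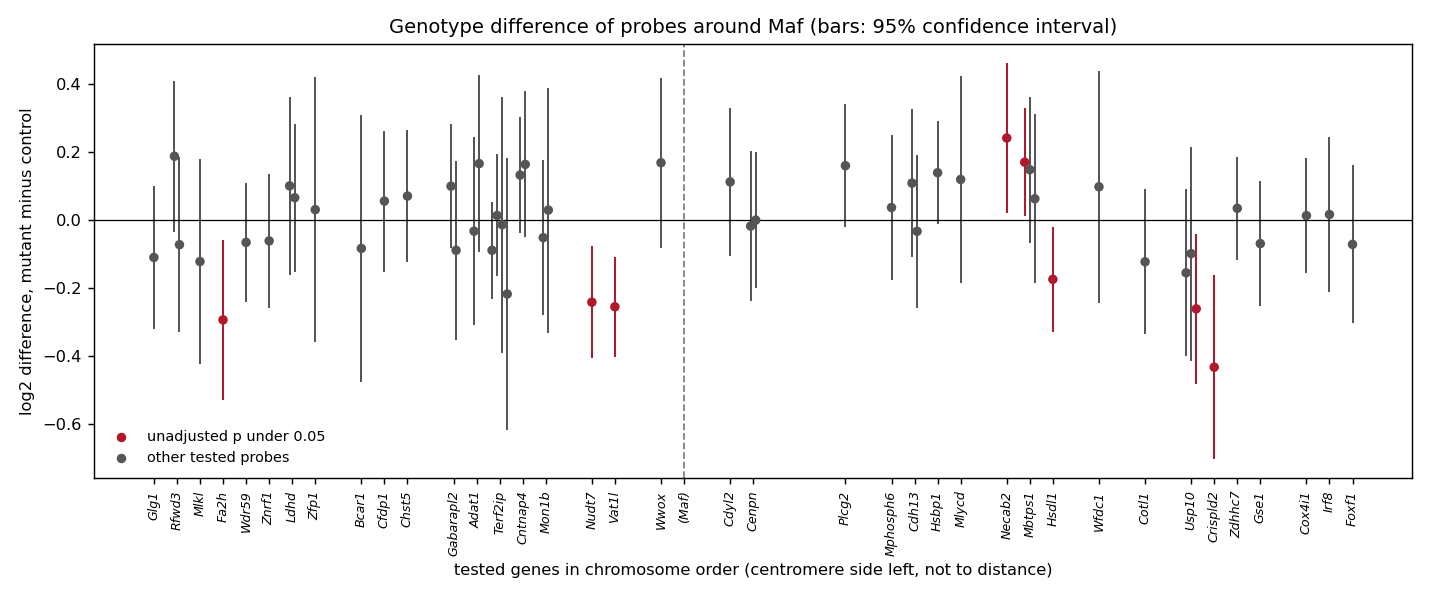
Log2 difference between mutant and control pools (vertical axis) for the 53 tested probes of the flanking genes, placed in chromosome order without regard to distance (horizontal axis). Points are fitted differences, bars their 95% confidence intervals, the dashed line marks Maf, and the 8 red probes have an unadjusted p under 0.05. Differences ran from -0.43 to 0.24, and 0 of 53 had an adjusted p under 0.05.

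On the centromere side the members nearest to Maf are, in order away from it, Wwox, Clec3a, Vat1l, Nudt7 and Adamts18. Vat1l, which encodes a relative of the vesicle amine transport protein VAT1, had the smallest unadjusted p of all members. Its level in control pools was 11.55 at the lowest, 11.79 at the median and 11.82 at the highest. In mutant pools it was 11.37, 11.50 and 11.58. Of the 6 mutant pools 5 lay below every control pool, and the groups overlapped through control replicate 6 alone, whose 11.55 stood apart from the other 5 controls. The difference was -0.26 (SE 0.07, 95% interval -0.40 to -0.11, unadjusted p = 0.0019, adjusted p = 0.28). Without control replicate 6 it was -0.30, with an adjusted p of 0.18, and over all alternatives the adjusted p ran from 0.12 to 1.00.

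Nudt7 lies next to Vat1l and encodes a peroxisomal hydrolase that splits coenzyme A. Its brighter probe stood at 9.79, 9.87 and 10.12 (lowest, median, highest) in controls and at 9.60, 9.69 and 9.75 in mutants. The highest mutant lay below the lowest control. It was the 1 tested member probe so separated, beside 0.562% of all tested probes in this direction, and 0 member probes had all mutants above all controls, beside 0.152%. The difference was -0.24 (SE 0.075, unadjusted p = 0.0060, adjusted p = 0.44). A dimmer Nudt7 probe, detected on 0 of 12 arrays and not tested, had values of 4.56 to 4.77 in controls and 4.43 to 4.48 in mutants, which are background values and give no level to compare.

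Wwox, the closest gene on this side, encodes an oxidoreductase with WW domains and spans a chromosomal fragile site. Its brightest probe was detected in 5 control and 6 mutant pools and averaged 5.44 ± 0.18 (SD, n = 6) in controls and 5.61 ± 0.24 (SD, n = 6) in mutants. The difference was 0.17 (SE 0.12, adjusted p = 0.90), or 0.08 with no background correction, and the groups overlapped. A dimmer Wwox probe, detected in 1 control and 3 mutant pools and not tested, ran from 4.83 to 5.25 in controls and from 5.19 to 5.69 in mutants. The third was detected on no array. The cartilage lectin gene Clec3a and the metalloprotease gene Adamts18 were detected on 0 of 12 arrays.

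On the telomere side the nearest members are Dynlrb2, Cdyl2, Cenpn, Gcsh and Pkd1l2, none of which had an unadjusted p under 0.05 among those tested. Cdyl2, a chromodomain protein gene, averaged 5.82 ± 0.19 (SD, n = 6) in controls and 5.93 ± 0.16 (SD, n = 6) in mutants. The groups overlapped, with a difference of 0.11 (SE 0.10, adjusted p = 0.93). Cenpn, which encodes a kinetochore protein, had 2 tested probes at -0.02 and -0.00 (adjusted p = 0.99 and 1.00), and the sign of either turned when single pools were left out. The dynein light chain gene Dynlrb2 was detected in 0 control pools and 1 mutant pool, and the glycine cleavage gene Gcsh in 0 and 2, so that neither was tested. The 3 probes of Pkd1l2, a gene of the polycystin family, were detected on no array.

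The sequences before the starts of Nudt7, Vat1l and Crispld2 are shown because these members had the smallest unadjusted p-values and Maf is a DNA-binding factor. Maf proteins bind a palindrome whose half-site is TGCTGA. RefSeq windows of 250 bases before to 50 after the annotated start (GRCm38.p6) were searched on both strands for the half-site. They were also searched for a full element in which the half-site is joined to its reverse complement through a single C or G. Other forms of a full element were not searched. Capitals mark the half-site, on either strand.
Nudt7, chr8:114133368-114133667, plus strand, the first listed of 2 starts: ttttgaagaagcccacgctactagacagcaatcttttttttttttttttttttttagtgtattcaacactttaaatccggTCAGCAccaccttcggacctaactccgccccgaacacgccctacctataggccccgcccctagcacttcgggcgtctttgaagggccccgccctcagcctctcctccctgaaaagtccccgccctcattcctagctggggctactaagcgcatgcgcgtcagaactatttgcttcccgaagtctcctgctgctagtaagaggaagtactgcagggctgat
Vat1l, chr8:114205390-114205689, plus strand: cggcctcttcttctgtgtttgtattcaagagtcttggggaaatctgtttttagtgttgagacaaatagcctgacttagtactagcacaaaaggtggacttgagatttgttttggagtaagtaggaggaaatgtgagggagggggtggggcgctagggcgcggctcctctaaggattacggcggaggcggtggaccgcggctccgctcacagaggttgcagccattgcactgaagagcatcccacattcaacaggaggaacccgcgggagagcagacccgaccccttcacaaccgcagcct
Crispld2, chr8:119992188-119992487, plus strand: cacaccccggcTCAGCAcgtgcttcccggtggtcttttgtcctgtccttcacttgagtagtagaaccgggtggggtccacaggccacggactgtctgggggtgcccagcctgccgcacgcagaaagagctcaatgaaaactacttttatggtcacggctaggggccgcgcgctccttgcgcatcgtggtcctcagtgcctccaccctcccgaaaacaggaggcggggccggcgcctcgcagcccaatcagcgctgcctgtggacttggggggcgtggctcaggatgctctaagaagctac

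The windows of Nudt7 and Crispld2 hold 1 half-site each and that of Vat1l holds 0. The RefSeq table had windows for 38 of the 52 members, 48 starts in all, of which 9 starts (18.8%) in 8 genes held the half-site. Of all 32851 windows 19.5% held it. A full element of the searched form was in 0 of the 48 member windows and in 1 of all 32851. A match is a description of the letters, not a binding site.

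Genes of metabolism held 4 of the 8 probes at an unadjusted p under 0.05, all 4 lower in mutants, among 10 tested probes of the group, beside 3.77% of all tested probes in that direction. The role groups were drawn up by hand with results known, so their counts order the account and carry no test. The 4 genes were Nudt7, Vat1l, Fa2h and Hsdl1. Fa2h encodes the enzyme that hydroxylates fatty acids of myelin lipids. It stood at 8.55, 8.88 and 9.13 (lowest, median, highest) in controls and at 8.34, 8.54 and 8.72 in mutants. Of the 6 mutant pools 3 lay below all controls and the other 3 lay within their range. The difference was -0.30 (SE 0.11, unadjusted p = 0.016, adjusted p = 0.63).

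Of 8 tested markers of myelinating Schwann cells 7 stood below 0 and Mag stood at 0.02, with a median difference of -0.23 and 0 called. Their summed normalised intensity ran from 10485 to 12467 in controls and from 8183 to 10769 in mutants, so that the groups overlapped. Gjb1, a gap junction gene on this list, was too dim to be tested. The part of these cells in the Fa2h value was not tested, and in bulk tissue fewer cells of a type and less RNA per cell cannot be told apart.

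Hsdl1, a hydroxysteroid dehydrogenase-like gene, stood at 10.27, 10.44 and 10.53 in controls and at 10.13, 10.32 and 10.33 in mutants. Control replicate 5 lay within the mutant range, and the other 5 controls lay above it. The difference was -0.18 (SE 0.07, unadjusted p = 0.025, adjusted p = 0.71). The other tested probes of metabolism genes, Wwox aside, stood between 0.01 and 0.12, among them those of Ldhd, a D-lactate dehydrogenase, Mlycd, the malonyl-CoA decarboxylase, and Cox4i1, a subunit of cytochrome c oxidase.

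Among signalling genes Necab2, a neuronal calcium-binding protein gene, stood at 6.86, 7.07 and 7.22 in controls and at 7.15, 7.24 and 7.73 in mutants. The highest value came from mutant replicate 3, and 3 of the other 5 mutants were also above all controls. The difference was 0.24 (SE 0.10, unadjusted p = 0.034, adjusted p = 0.75). Without mutant replicate 3 it was 0.15, a change of more than 1.5 times. Of 8 tested sensory neuron markers 4 stood above 0 and 4 below, from -0.30 (Nefh and Isl1) to 0.16 (Scn10a), with 0 called. Their summed intensity ran from 40802 to 48568 in controls and from 39212 to 44407 in mutants. Their part in the Necab2 value was not tested.

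Plcg2, a phospholipase C of immune cells, stood at 0.16 (SE 0.08, adjusted p = 0.86). Of 10 tested macrophage markers 9 stood above 0, with a median of 0.25 and 0 called. Their summed intensity ran from 1262 to 2120 in controls and from 1853 to 2244 in mutants, and their part in the Plcg2 value was not tested. Irf8, a transcription factor of the macrophage lineage, was near background, detected in 4 control and 3 mutant pools, and stood at 0.02. The necroptosis gene Mlkl and the actin-binding gene Cotl1 both stood at -0.12, with adjusted p-values of 0.94 and 0.92.

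Among genes of vesicle traffic, the Golgi, autophagy and cilia 1 of 10 tested probes had an unadjusted p under 0.05. The share over all tested probes was 6.34%. The probe of this group belongs to Mbtps1, the site-1 protease that releases SREBP transcription factors. The brightest Mbtps1 probe, which is this one, stood at 8.04, 8.10 and 8.30 in controls and at 8.17, 8.31 and 8.47 in mutants. Of the 6 mutant pools 4 lay above all controls, and mutant replicates 4 and 5 lay within the control range. The difference was 0.17 (SE 0.07, unadjusted p = 0.037, adjusted p = 0.76), and the other 2 tested probes stood at 0.15 and 0.06. Glg1, a Golgi glycoprotein gene, stood at -0.11, and Zdhhc7, a palmitoyltransferase gene, at 0.03.

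In the ubiquitin group 1 of 6 tested probes was at an unadjusted p under 0.05, beside 6.34% of all tested probes. It was the dimmest of 3 probes of the deubiquitinase gene Usp10, at 6.15, 6.27 and 6.49 in controls and at 5.84, 5.97 and 6.37 in mutants. Of the 6 mutants 5 lay below all controls, and mutant replicate 1 lay inside the control range. The difference was -0.26 (SE 0.10, unadjusted p = 0.022, adjusted p = 0.68). Its brighter probes stood at -0.16 and -0.10, with adjusted p-values of 0.91 and 0.95. Znrf1, a ubiquitin ligase gene, stood at -0.06, and the 2 probes of Rfwd3, a ligase of DNA repair, at 0.19 and -0.07.

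Of 7 tested probes for membrane, adhesion and matrix genes 1 had an unadjusted p under 0.05, beside 6.34% of all tested probes. Crispld2, the next member after Usp10, encodes a secreted protein with a cysteine-rich domain and had the largest difference of the tested members. It was dim: controls stood at 5.34, 5.69 and 6.04 with 6 of 6 detected, and mutants at 4.99, 5.28 and 5.51 with 3 of 6 detected. Of the 6 mutants 3 lay below all controls and 3 lay within their range. The difference was -0.43 (SE 0.12, unadjusted p = 0.0037, adjusted p = 0.36), a size that depends on values near background and was -0.25 with a normexp offset of 50 and -0.22 with no background correction. Of 8 fibroblast and meningeal markers 7 stood below 0, with a median of -0.12 and 0 called, and their summed intensity ran from 11218 to 15186 in controls and from 12659 to 14526 in mutants. Their part in the Crispld2 value was not tested.

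The other genes of this group did not reach that p. Both probes of Cntnap4, a neurexin-family protein gene, stood above 0 at 0.13 and 0.16. The 2 probes of Cdh13, which encodes T-cadherin, stood at 0.11 and -0.03. Bcar1, a scaffold of integrin signalling, stood at -0.08, and Wfdc1, a secreted protease inhibitor gene, at 0.10.

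**Figure D2:**
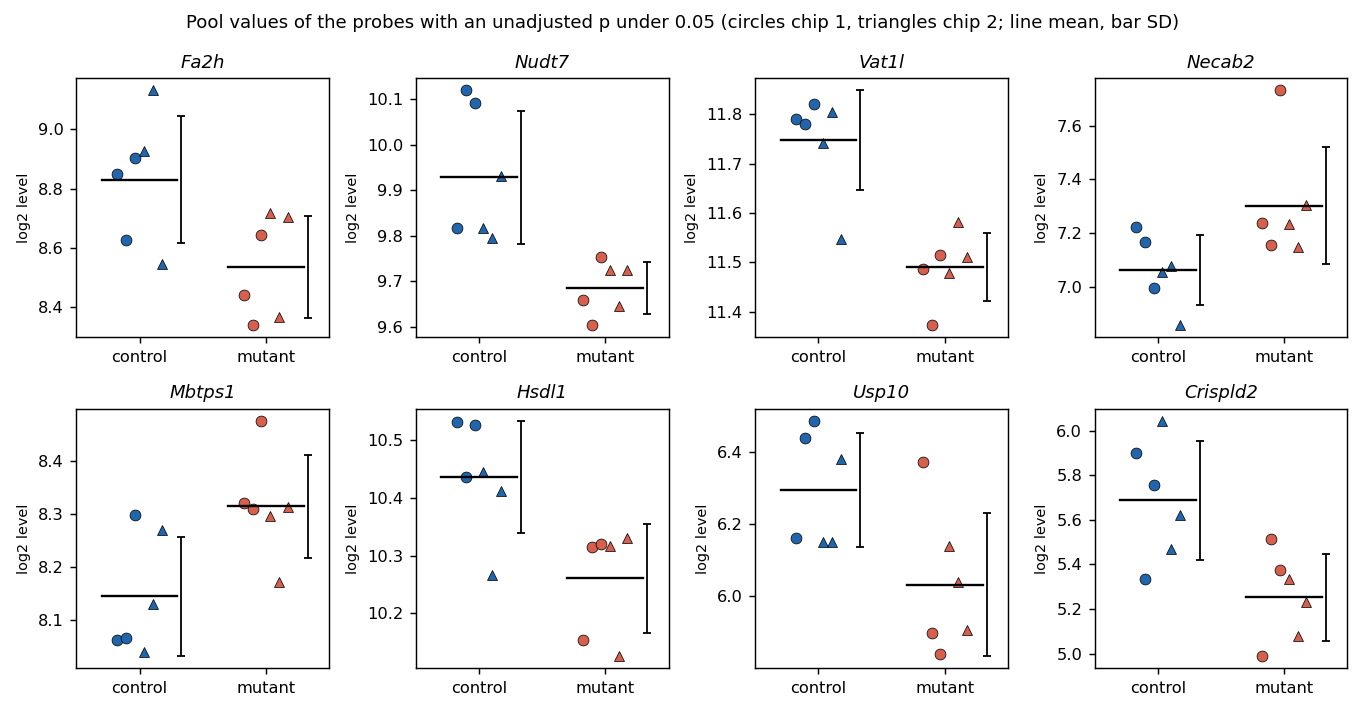
Log2 level (vertical axis, a separate scale in each panel) of the 8 member probes with an unadjusted p under 0.05, for 6 control and 6 mutant pools. Circles are chip 1, triangles chip 2, lines group means and bars SD. The groups overlapped in each panel except Nudt7, where the highest mutant stood at 9.75 and the lowest control at 9.79.

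The group of chromatin, transcription, DNA and RNA genes was the largest, with 16 tested probes. Of these 0 had an unadjusted p under 0.05, beside 6.34% of all tested probes. The differences of the 16 probes ran from -0.22 to 0.16. The values nearest to that p came from Hsbp1, which binds heat shock factor, at 11.24 ± 0.11 (SD, n = 6) in controls and 11.38 ± 0.07 (SD, n = 6) in mutants. The difference was 0.14 (SE 0.07, unadjusted p = 0.065, adjusted p = 0.83). The 4 probes of Terf2ip, a telomere-binding protein gene, stood at -0.09, 0.01, -0.02 and -0.22 from brightest to dimmest. Foxf1, a forkhead factor of mesenchyme and the last gene of the stretch, was close to background at 5.46 ± 0.16 and 5.39 ± 0.22 (SD, n = 6 each). Cfdp1, Zfp1, Mphosph6 and Gse1 lay between -0.07 and 0.05.

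Where a gene had more than 1 tested probe the probes could differ in sign. This held for 6 of 11 such genes, among them Rfwd3, Gabarapl2, Adat1 and Mon1b. None of these 6 had a probe at an unadjusted p under 0.05. Of the 53 tested member probes 46 lay within 0.2 of 0, and the share of such genes over the whole array was not computed. The probes of Mbtps1 and of Usp10 each shared a sign within the gene. Probe positions and strain variants under the probes were not used here.

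**Figure D3:**
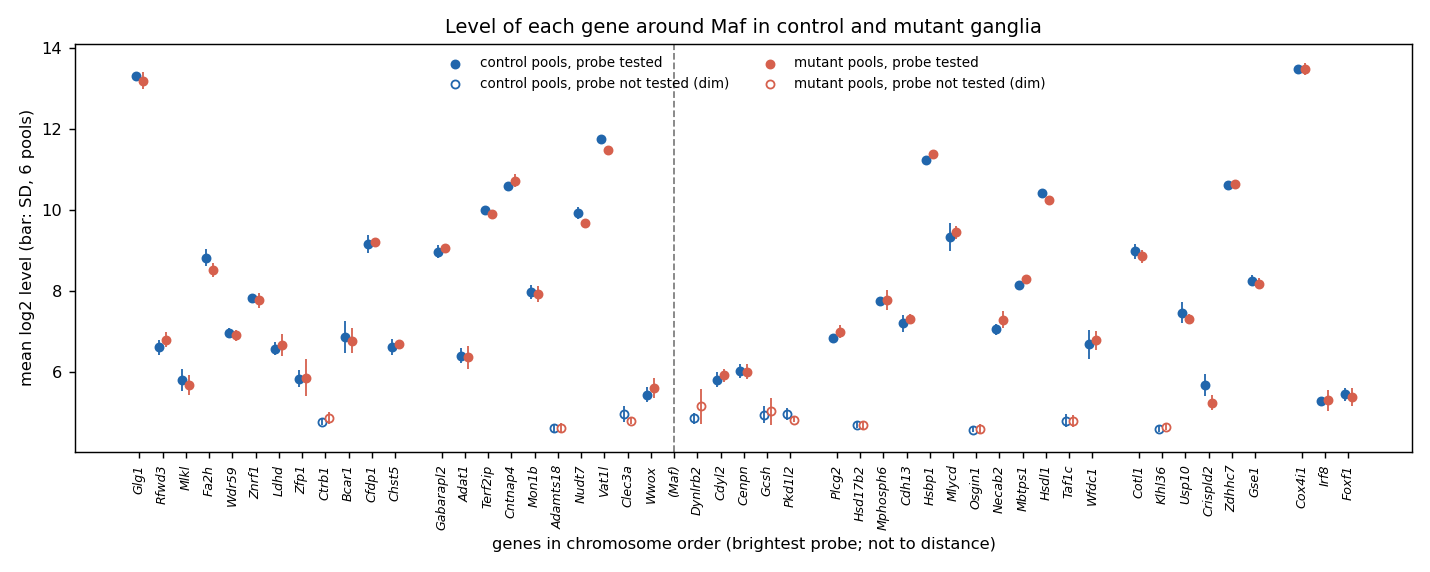
Mean log2 level with SD (vertical axis, 6 pools per group) of the brightest probe of the 48 flanking genes with a named probe, in chromosome order without regard to distance. Filled points were tested, open points were detected on fewer than 6 of 12 arrays, and the dashed line marks Maf. Levels of different probes are not comparable as amounts of RNA.

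The level of the members varied between pools about as much as that of other probes. The median SD over member probes was 0.17 in controls and 0.17 in mutants, beside 0.16 and 0.18 over all tested probes. Among tested probes the widest range within a group was that of the dimmest tested Terf2ip probe, from 5.20 to 6.46 in mutants, followed by Zfp1, a zinc finger gene, from 5.06 to 6.31. Both lowest values came from mutant replicate 3. Among controls the range was widest for Bcar1, from 6.12 in replicate 5 to 7.22 in replicate 4.

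The genotype difference was also read on each chip. The 8 probes with an unadjusted p under 0.05 were chosen on both chips together, which largely fixes that their signs are shared, so their values by chip are a description only. Vat1l stood at -0.34 on chip 1 and -0.17 on chip 2, and Nudt7 at -0.34 and -0.15. Fa2h stood at -0.32 and -0.27, and Crispld2 at -0.37 and -0.50. Over all 53 member probes 32 had the same sign on both chips, or 60.4%, beside 55.7% of all tested probes. In limma, the interaction of genotype with chip gave 0 member probes at an adjusted p under 0.05 and 0 at an unadjusted p under 0.05, beside 2.82% of all tested probes at the latter. From 3 pools against 3, 3 of 53 member probes on chip 1 had an unadjusted p under 0.05, beside 5.01% of all tested probes, and 1 on chip 2, beside 3.76%.

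**Figure D4:**
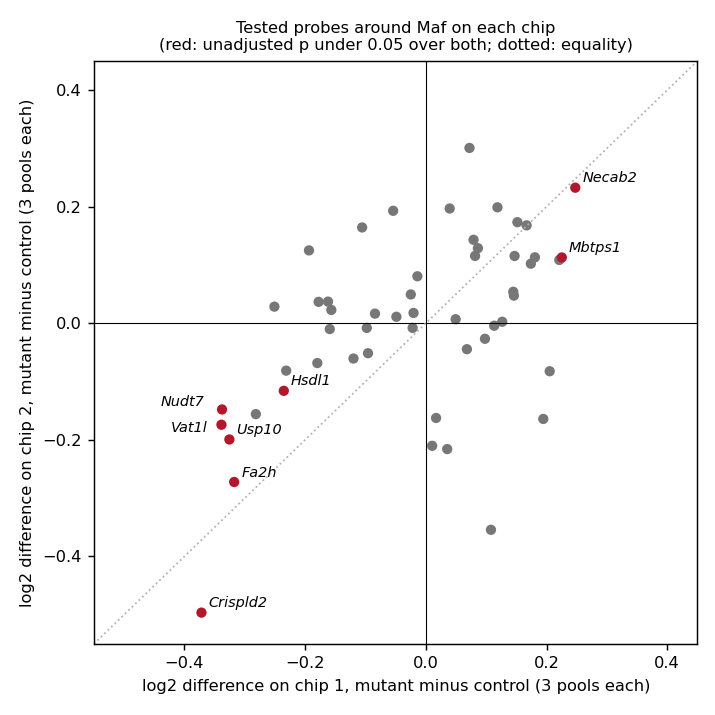
Log2 difference between mutant and control pools on chip 1 (horizontal axis) and on chip 2 (vertical axis), each from 3 pools against 3, for the 53 tested member probes. Red points have an unadjusted p under 0.05 over both chips, and the dotted line marks equal differences. The red probes were chosen on both chips together, so that their shared sign is largely fixed by that choice, and 32 of 53 probes had the same sign on both chips.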

How the data were processed

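Deposited probe intensity values came from GenomeStudio, of unnamed version, per the submitters' processing notes. The deposited intensity was neither background-subtracted nor normalized, with medians over probes from 86.1 to 99.6. The file headers name a detection p-value for each probe and array. A further deposited intensity table of unstated making was used as an alternative. Groups, replicate numbers and chips came from the labels. Log2 values were computed with neqc (normexp, offset 16, quantile step) in limma 3.58.1 under R 4.3.3. Mutant and control pools were compared with lmFit and eBayes over all 13177 tested probes, and p-values were adjusted over all of them. The steps were tested on simulated data. Of 25697 probes, 23978 had 1 gene symbol, 0 several and 1719 none, and 23962 matched RefSeq names (GRCm38.p6) by identifier. RefSeq gave gene order, which differs from the list at 4 places. The lowest correlation between arrays was 0.987, and no 2 arrays were identical. The members, lists, tests and alternatives were chosen with earlier results of these data known. Levels, difference, SE and adjusted p are given for members at an unadjusted p under 0.05. The same are given for those tested among the 5 members next to Maf on each side. Other members are given by value, range or count. The bound for Maf sets the control mean against the mutant arrays' mean floor, the higher of the lowest detected signal and the probe's own value.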

Additional observations from a re-analysis of the deposited data

Results flagged for a closer look

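Of 106 groups of 6 pools looked at among the tested member probes, 6 held a pool that stood far from its group. By chance alone about 1 in 20 groups would, which is 5.3 of these. Of the 6, 4 were mutant replicate 3. It was lowest for Glg1 (12.79, next 13.15) and Wdr59 (6.65, next 6.92), and highest for the dimmer tested Adat1 probe (6.43, next 5.89) and Necab2 (7.73, next 7.30). Control replicate 2 was lowest for the dimmer Rfwd3 probe (5.11, next 5.59). Control replicate 6 was lowest for Vat1l (11.55, next 11.74).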

How the results depend on the processing

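Across 26 alternatives of the genotype comparison, 0 of the 53 tested member probes had an adjusted p under 0.05 in any, with the smallest at 0.12. The 8 probes with an unadjusted p under 0.05 kept their sign in each alternative that tested them, as did Wwox and Cdyl2, and 28 of the 53 probes kept 1 sign throughout. The count of member probes at an unadjusted p under 0.05 became 13 of 74 with no filter (beside 5.49% of all probes), 3 within chip 1 (5.01%), 1 within chip 2 (3.76%) and 5 to 10 with single pools left out (5.40% to 6.91%). The count with all mutants below all controls became 2 of 74 with no filter, beside 0.377% of all probes. It was 1 to 2 of 53 with single pools left out, beside 0.653% to 0.820% of all tested probes. The count was 2 without control replicates 5 or 6 or mutant replicates 1 or 5. The median difference of members moved from 0.01 to -0.026 with array weights. With single pools left out the chip test found 0 to 1 of 53 member probes at an unadjusted p under 0.05, beside 2.35% to 4.99% of all tested probes. The brighter Cenpn probe stood at 0.011 within chip 2 and from -0.081 to 0.045 with single pools left out, and the dimmer at 0.018 and from -0.049 to 0.036; the cause was not tested. With the replicate number as a block (replicate block) 6 member probes had an unadjusted p under 0.05 (beside 6.72% of all) and 0 an adjusted one. Same-numbered pools share only a number: their deviations correlated from -0.12 to 0.19, and 2 of 6 controls and 1 of 6 mutants correlated best with their own number. Signals near background limit Crispld2, Wwox, Irf8, Foxf1 and the dimmer Cenpn probe.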

Other observations

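Of the 21 member probes too dim to be tested, 15 were detected on no array. A fit without the filter put 4 of these 21 probes at an unadjusted p under 0.05, beside 5.49% of all probes, none with an adjusted p under 0.05. Besides the second probes of Nudt7 (-0.18, adjusted p = 0.28) and Wwox (0.40, adjusted p = 0.45) they were the second probes of Mlkl (-0.20, adjusted p = 0.89) and Gse1 (-0.14, adjusted p = 0.73). Mlkl and Gse1 are genes whose brighter probes stood at -0.12 and -0.07. Of these 4 probes 3 were detected on 0 of 12 arrays, so that their values have no level to compare.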
